A study of Mus musculus with 6 samples.

Results

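Pattern recognition in the inflamed colon was followed through 10 genes: the surface Toll-like receptors *Tlr1*, *Tlr2* and *Tlr4*, the endosomal receptor *Tlr3*, the lipopolysaccharide co-receptors *Cd14* and *Ly96*, the adaptor *Myd88*, the cytosolic receptors *Nod1* and *Nod2*, and *Tmem173*, which encodes STING. They were chosen by name, as receptors and adaptors of innate sensing, but with earlier results of these data known. All 10 were found among the 20327 gene symbols of the files. A gene was tested when 3 or more of the 6 libraries held at least 10 tags of it, which 7 of the 10 genes and 9334 genes in all passed.

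The libraries were made from C57BL/6 mice that carried the *Il11-Egfp* transgene, a bacterial artificial chromosome in which the *Il11* promoter drives EGFP, in a single selected line. All mice were 9 to 15 weeks old, drank 1.5% dextran sulfate sodium (DSS), which injures the colonic epithelium and causes colitis, for 5 days, and had their colons taken on day 7, so that no untreated group enters the comparison. From cells without Ter119, CD45, CD31 and EpCAM, EGFP-Positive (IL-11+) and EGFP-Negative (IL-11-) cells were sorted. Their polyadenylated RNA was counted at its 5′ end by 5′Tag-seq in 3 libraries of each kind, from 3 mice. The comparison asked how fibroblasts that express *Il11* in colitis differ from their neighbours. Libraries held 1022851 to 1169817 tags, and 3 tags, taken as the floor, stood at 2.56 to 2.93 CPM, the counts scaled to equal library totals. Tags of single libraries are given in the order of replicates 1, 2 and 3.

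Toll-like receptors bind microbial lipids, proteins and nucleic acids at the cell surface or in endosomes. Most of them signal through the adaptor MyD88 to the IRAK kinases, TRAF6 and NF-κB, whereas TLR3 uses TRIF. Lipopolysaccharide is handed by LBP to CD14 and on to the complex of TLR4 and MD-2, the product of *Ly96*. In the cytosol, NOD1 and NOD2 sense fragments of peptidoglycan and signal through RIPK2, and STING answers cyclic GMP-AMP made by cGAS with TBK1, IRF3 and type I interferon. Colonic stromal cells meet microbial products when the epithelial barrier is broken.

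*Cd14* and *Tmem173* were higher in IL-11+ fibroblasts, and no tested gene of the 10 was called lower. A gene was called when edgeR's quasi-likelihood test gave a Benjamini-Hochberg adjusted p under 0.05 and the fold change was over 2. Thus 2 of 7 tested genes were called higher, where 3.44% of all tested genes were. Called lower were 0 of 7, where 6.37% of all tested genes were. *Cd14* passed the filter through the IL-11+ libraries, so that all counts of higher genes that include it are no support of their own. At an unadjusted p under 0.05, 2 of the 7 were higher and 2 were lower, where 12.2% and 14.5% of all tested genes were, and DESeq2 and edgeR's exact test also called 0 lower. The libraries of the groups did not overlap for 2 genes on the higher side and 1 on the lower side, *Myd88*, against 14.5% and 16.7% of all tested genes. Median log2 fold changes were −0.05 for the 7 tested genes and −0.01 for all tested genes. The receptors and adaptors therefore did not move in 1 direction.

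**Figure D1:**
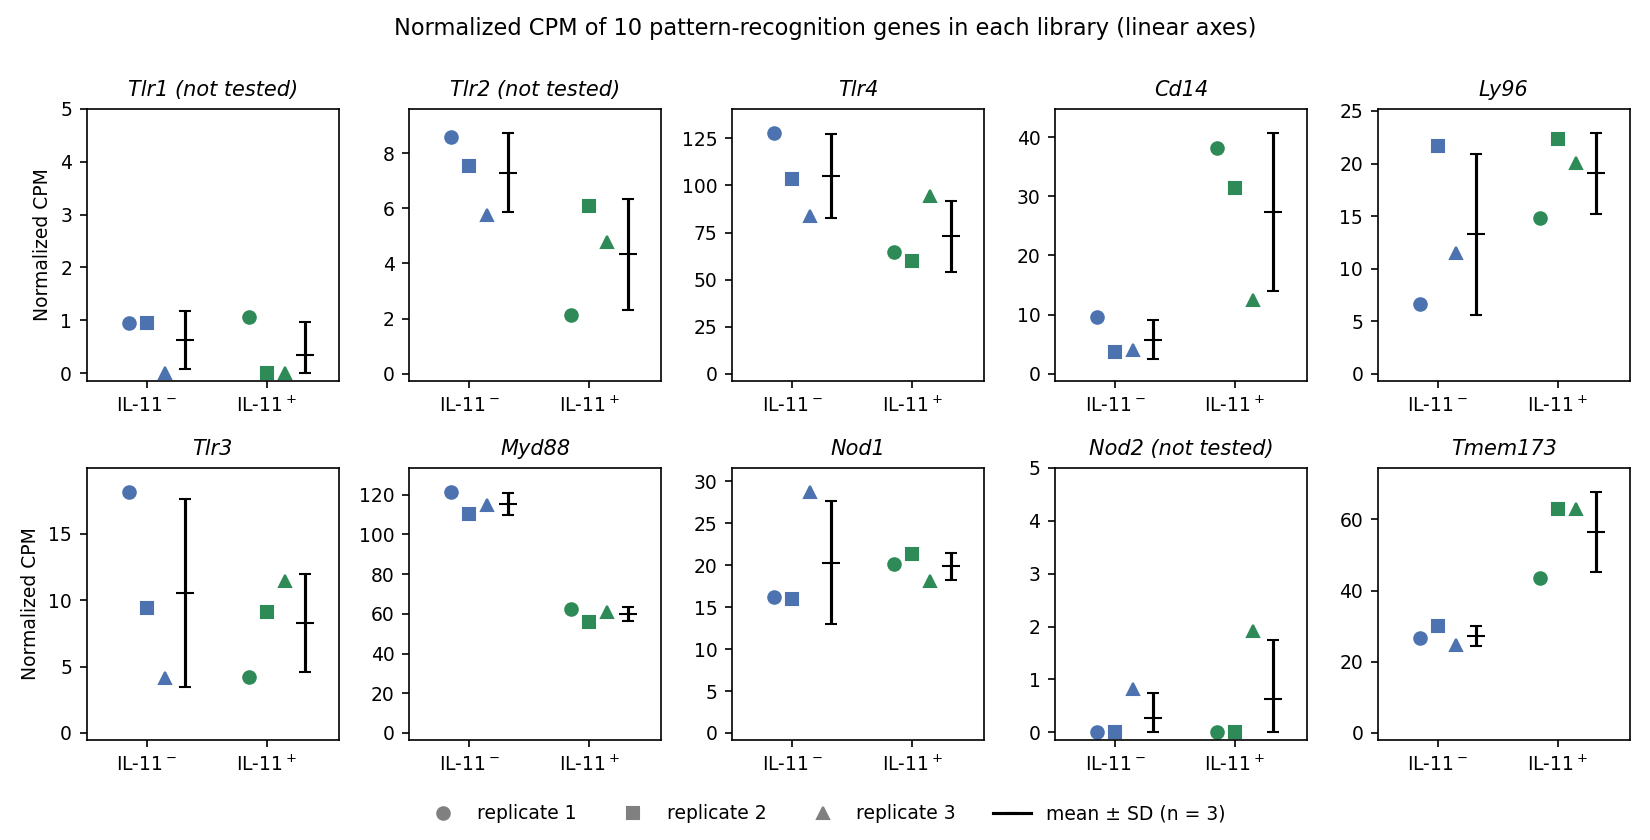
Normalized CPM of the 10 genes in each of the 6 libraries (vertical axes, linear, each with its own scale), with IL-11- libraries in blue, IL-11+ libraries in green, replicates 1, 2 and 3 as circles, squares and triangles, and the mean ± SD (n = 3) in black, its lower arm stopped at 0. The IL-11+ libraries lie above all IL-11- libraries for *Cd14* and *Tmem173* and below them for *Myd88*.

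*Il11* is given as a description of the sort and not as a test, since its promoter drives the EGFP sorted on. It had 28, 51 and 89 tags across IL-11- and 1357, 732 and 2658 across IL-11+ libraries. Its log2 fold change was 4.98 (SE 0.393). The transgene carries EGFP within the *Il11* gene, so some 5′ tags may stem from it, which was not tested. The fibroblast label was checked on 8 stromal genes, all of them tested. Their summed tags were 21912, 22019 and 28691 across IL-11- and 38753, 32364 and 30991 across IL-11+ libraries. *Dcn*, which encodes the proteoglycan decorin, was the most abundant of them, and *Col3a1* and *Pdpn* were called higher in IL-11+ fibroblasts. *Lum*, which encodes lumican, lay lower in all IL-11+ than in all IL-11- libraries (log2 fold change −0.64, SE 0.201), under the fold-change threshold. Of the antigens used for depletion, the genes of CD45, CD31 and EpCAM were near 0. *Ptprc* (CD45) had at most 7 tags in any library, and *Pecam1* (CD31) and *Epcam* at most 1. For Ter119 no gene is given, and erythroid genes, which were not near 0, summed to 95, 0 and 371 against 18, 2 and 20 tags.

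Smooth muscle and pericyte genes were checked as well. All 5 smooth muscle genes were lower in IL-11+ fibroblasts, next to 6.37% of all tested genes. The summed tags of these 5 were 1741, 2202 and 3154 across IL-11- and 53, 84 and 221 across IL-11+ libraries. *Myh11* led in IL-11- and *Acta2* in IL-11+ libraries. Of 5 pericyte genes 3 were lower (*Rgs5*, *Notch3* and *Cspg4*), next to the same 6.37%. Over all 5 the summed tags were 2561, 2214 and 2304 against 883, 771 and 722, *Rgs5* leading in IL-11- libraries. The other 2, *Abcc9* (log2 fold change 0.66, SE 0.182), which led in IL-11+ libraries, and *Kcnj8* (0.71, SE 0.227), had positive log2 fold changes and were past the p threshold alone. In such bulk samples, fewer cells of a type and less RNA per cell cannot be told apart, and the part of these cell types in the results on single genes was not tested.

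*Tlr4*, the receptor of lipopolysaccharide, had 134, 110 and 102 tags across IL-11- and 61, 59 and 99 across IL-11+ libraries. Normalized by TMM, these were 105.1 ± 22.1 and 73.0 ± 18.7 normalized CPM (SD, n = 3). IL-11+ replicate 3 stood among the IL-11- libraries, so that the groups overlapped. The log2 fold change was −0.52 (SE 0.211, 95% interval −0.96 to −0.07), and the Benjamini-Hochberg adjusted p of edgeR's quasi-likelihood test was 0.115. Without IL-11+ replicate 3 the log2 fold change was −0.75 and the adjusted p 0.0286, still under the fold-change threshold, and over all 15 alternatives the adjusted p ran from 0.0286 to 0.392 (0.046 with the replicate block). *Tlr4* lies on chromosome 4 (GRCm38, chr4:66827584-66930284, plus strand).

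*Tlr2*, which recognizes bacterial lipoproteins together with TLR1 or TLR6, was scarce and not tested, with 9, 8 and 7 tags across IL-11- and 2, 6 and 5 across IL-11+ libraries. All IL-11- counts were above all IL-11+ counts, but in normalized CPM the lowest IL-11- library (5.75) fell below the highest IL-11+ library (6.09). Without the filter on low counts its log2 fold change was −0.68 (SE 0.599, adjusted p = 0.639 in the edgeR quasi-likelihood test over 20327 genes). *Tlr1* had 1, 1 and 0 tags across IL-11- and 1, 0 and 0 across IL-11+ libraries, under the floor in every library, so that a difference was not detectable at this depth. *Tlr2* spans chr3:83836272-83841767 and *Tlr1* chr5:64924679-64933563, both on the minus strand.

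*Tlr3*, the endosomal receptor of double-stranded RNA, had 19, 10 and 5 tags across IL-11- and 4, 9 and 12 across IL-11+ libraries. Each group spread over a wide range and the ranges overlapped. The log2 fold change was −0.30 (SE 0.518, adjusted p = 0.774 in the edgeR quasi-likelihood test), and its 95% interval from −1.39 to 0.78 includes a change of more than 2-fold downwards. Its direction depended on single libraries. Without IL-11- replicate 1 the log2 fold change was 0.33, and without IL-11- replicate 3 it was −0.71. *Tlr3* lies at chr8:45395665-45411080 on the minus strand.

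*Cd14*, whose product passes lipopolysaccharide to TLR4 and MD-2, had 10, 4 and 5 tags across IL-11- and 36, 31 and 13 across IL-11+ libraries. These were 5.81 ± 3.24 and 27.3 ± 13.4 normalized CPM (SD, n = 3). Every IL-11+ library was above every IL-11- library, with IL-11+ replicate 3 well below the other 2. *Cd14* passed the filter through the IL-11+ libraries, since 1 IL-11- library alone reached 10 tags, so that the count of higher genes that includes it is no support of its own. *Cd14* rose 4.66-fold (log2 fold change 2.22, SE 0.465, 95% interval 1.24 to 3.20, adjusted p = 0.00239 in the edgeR quasi-likelihood test). The call held when each of the 6 libraries was left out in turn, with log2 fold changes from 1.91 to 2.74.

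*Cd14* is also a marker of monocytes and macrophages, so markers of leukocytes are given beside it. Of the 13 macrophage and pan-leukocyte genes in the files none was tested, since none reached 10 tags in 3 libraries. Their summed tags were 29, 59 and 40 across IL-11- and 28, 20 and 14 across IL-11+ libraries, so that no IL-11+ library exceeded an IL-11- library in summed tags. In normalized CPM, IL-11+ replicate 1 (29.7) lay above IL-11- replicate 1 (27.7). *Cd68* was the most abundant over the 6 libraries, with 10, 3 and 4 against 7, 8 and 4 tags, *Csf1r* had at most 2 tags in any library, and *Lyz2* had 4, 0 and 0 tags in the IL-11+ libraries. Neutrophil genes summed to 24, 21 and 28 against 44, 23 and 35 tags. In normalized CPM these were 22.9, 19.8 and 23.0 against 46.6, 23.4 and 33.4, so that every IL-11+ sum was above every IL-11- sum. *Cxcr2* had 20, 14 and 21 against 21, 16 and 23 tags, *S100a8* 2, 4 and 2 against 13, 1 and 12, and *S100a9* 1, 0 and 4 against 9, 4 and 0. In IL-11+ replicate 1 *S100a8* and *S100a9* together exceeded *Cxcr2*. *Csf3r* was lower on average in IL-11+ libraries, with 1, 3 and 1 against 1, 1 and 0 tags. *Retnlg* had 1 tag, in IL-11+ replicate 2, and the single genes thus did not all follow the sum. The part of neutrophil RNA was not tested.

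*Ly96* encodes MD-2, the subunit that holds lipopolysaccharide within the TLR4 complex. It had 7, 23 and 14 tags across IL-11- and 14, 22 and 21 across IL-11+ libraries, and the groups overlapped. The log2 fold change of 0.52 (SE 0.388, 95% interval −0.29 to 1.34) did not pass edgeR's quasi-likelihood test (adjusted p = 0.434). Without IL-11- replicate 1 the log2 fold change was 0.22, and without IL-11- replicate 2 it was 1.05. Neither was called (adjusted p = 0.805 and 0.135 in the same test). Hence, of the 3 genes of lipopolysaccharide reception, *Cd14* alone was called. *Ly96* spans chr1:16688051-16709611 on the plus strand.

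*Myd88*, the adaptor shared by most Toll-like receptors and the interleukin-1 receptor family, had 127, 117 and 140 tags across IL-11- and 59, 55 and 64 across IL-11+ libraries. These were 115.5 ± 5.53 and 59.8 ± 3.51 normalized CPM (SD, n = 3). The libraries of each group lay close together, and every IL-11+ library was far below every IL-11- library. *Myd88* was 1.93-fold lower (log2 fold change −0.95, SE 0.174, 95% interval −1.31 to −0.58), and edgeR's quasi-likelihood test gave an adjusted p of 0.000744. It was thus past the p threshold and just under the fold-change threshold, and was not called. With scaling by library size alone it was called lower, at a log2 fold change of −1.03. All smooth muscle genes and 3 of 5 pericyte genes were lower in the same libraries, where 6.37% of all tested genes were. The part of these cell types in this difference was not tested. *Myd88* spans chr9:119335934-119341411 on the minus strand, where the annotation places *Slc22a14* on the same strand and *Acaa1a* on the other.

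*Nod1*, a cytosolic receptor of peptidoglycan fragments found mostly in Gram-negative bacteria, had 17, 17 and 35 tags across IL-11- and 19, 21 and 19 across IL-11+ libraries. Apart from IL-11- replicate 3, the libraries were alike. The log2 fold change was −0.05 (SE 0.318, adjusted p = 0.946 in the edgeR quasi-likelihood test), with a 95% interval from −0.72 to 0.62. Without IL-11- replicate 3 it was 0.30 (SE 0.347). *Nod2*, the receptor of muramyl dipeptide, had 0, 0 and 1 tags across IL-11- and 0, 0 and 2 across IL-11+ libraries, under the floor throughout. In addition, 3.62% of the 50-nt windows in the first 300 nt of *Nod2* transcripts also occur in *Txnl4a* or *Vmn2r66*, so that its few tags are uncertain. None of the other 9 genes shared such a window with another gene. *Nod1* spans chr6:54923949-54972612 (minus strand) and *Nod2* chr8:88647315-88688474 (plus strand).

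*Tmem173* encodes STING, the adaptor of cytosolic DNA sensing in the endoplasmic reticulum. It had 28, 32 and 30 tags across IL-11- and 41, 62 and 66 across IL-11+ libraries, or 27.2 ± 2.78 and 56.5 ± 11.3 normalized CPM (SD, n = 3). Every IL-11+ library was above every IL-11- library, with IL-11+ replicate 1 nearest to them. *Tmem173* rose 2.08-fold (log2 fold change 1.06, SE 0.239, 95% interval 0.56 to 1.56, adjusted p = 0.00436 in the edgeR quasi-likelihood test). This is just over the fold-change threshold: without IL-11- replicate 3, IL-11+ replicate 2 or IL-11+ replicate 3 the log2 fold change was 0.99, 0.98 or 0.97 and the call was lost, although the adjusted p was at most 0.0288 in these fits. With scaling by library size alone it was 0.98, also under the threshold.

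Both genes that rose lie on the minus strand of chromosome 18, *Tmem173* at chr18:35733679-35740554 in 8 exons and *Cd14* at chr18:36725067-36726798 in 2 exons, 985 kb apart. Of the 9 tested genes between them, 1 was called, *Cystm1*, which was lower, next to 6.37% lower and 3.44% higher of all tested genes. *Cystm1* is named after its value was seen.

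**Figure D2:**
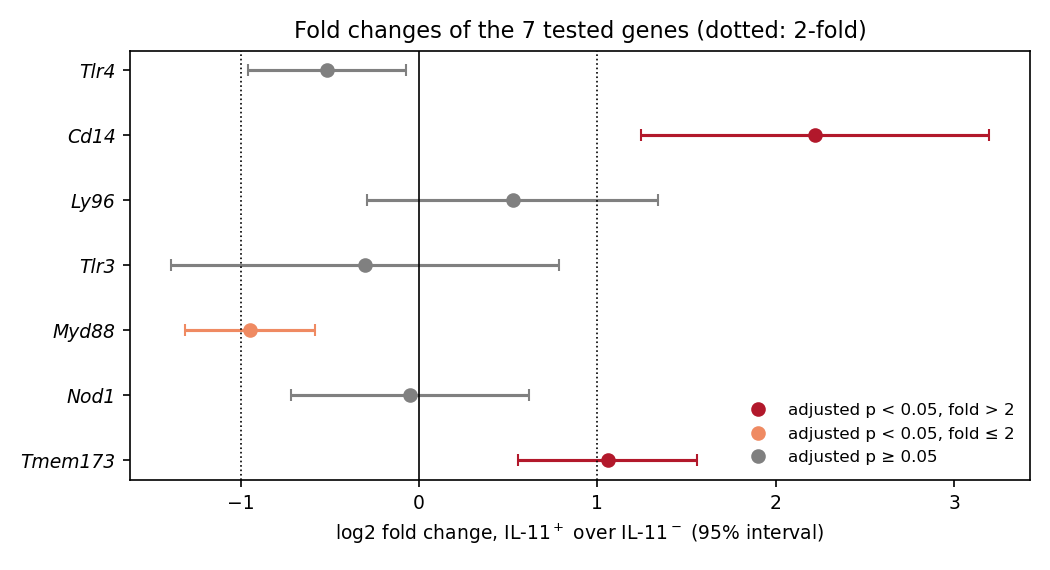
Log2 fold change of IL-11+ over IL-11- fibroblasts (horizontal axis) for the 7 tested genes, with 95% intervals from edgeR's quasi-likelihood fit as bars and dotted lines at a 2-fold change. *Cd14* (2.22) and *Tmem173* (1.06) are called higher, *Myd88* (−0.95) is past the p threshold alone, and the intervals of *Ly96*, *Tlr3* and *Nod1* cross 0.

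The genes that act with these receptors were described in 8 lists, with 70 genes in the files and 51 tested. These lists, too, were chosen with earlier results of these data known. Of the 51, 3 were called higher (5.88%) and 4 lower (7.84%), next to 3.44% and 6.37% of all tested genes, and their median log2 fold change was −0.01. Medians of single lists lay from −0.90 to 0.73. With the adjusted p of edgeR's quasi-likelihood test alone, 8 were higher (15.7%) and 7 lower (13.7%), next to 6.84% and 8.7% of all tested genes. The other Toll-like receptors in the files (*Tlr5*, *Tlr6*, *Tlr9*, *Tlr12* and *Tlr13*) had at most 4 tags in any library and none was tested.

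Of the accessory proteins and adaptors of Toll-like receptors, 6 were tested and 2 were lower in IL-11+ fibroblasts, next to 6.37% of all tested genes. *Lbp*, which encodes the lipopolysaccharide-binding protein upstream of CD14, had 247, 163 and 172 tags across IL-11- and 26, 45 and 54 across IL-11+ libraries. All IL-11+ libraries were far below all IL-11- libraries (log2 fold change −2.08, SE 0.241, adjusted p = 6.9e-06 in the edgeR quasi-likelihood test). *Lbp* and *Cd14* thus moved in opposite directions. *Cd36*, a scavenger receptor that assists TLR2, had 10, 15 and 11 tags against 0 in all 3 IL-11+ libraries, at least 3.6-fold lower against a floor of 3 tags per library. *Cd36* passed the filter through the IL-11- libraries alone, so that the counts of lower genes that include it are no support of their own. *Hsp90b1*, the chaperone of Toll-like receptors, had 1661 and 1824 normalized CPM and a log2 fold change of 0.13 (SE 0.187). The median of the 6 was −0.02, also with *Cd36* at its bound.

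Downstream of MyD88, 12 genes of the IRAK, TRAF6 and TAK1 relay were tested. None was called by edgeR's quasi-likelihood test, DESeq2 or edgeR's exact test, 2 were lower and 0 higher at an unadjusted p under 0.05 (14.5% and 12.2% of all tested genes), and the median log2 fold change was 0.03. The most abundant were *Tab2* (log2 fold change 0.33, SE 0.183), *Peli1* (−0.48, SE 0.203) and *Chuk* (0.17, SE 0.197). *Ikbkg*, which encodes the regulatory subunit NEMO of the IκB kinase, had 27, 18 and 14 tags across IL-11- and 11, 3 and 10 across IL-11+ libraries (log2 fold change −1.14, SE 0.451, adjusted p = 0.103 in the edgeR quasi-likelihood test). With the replicate number as a block its adjusted p was 0.0482 and it was called lower, and over its 14 alternatives the adjusted p ran from 0.0482 to 0.386.

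Among the negative regulators of this relay, *Tnip1* was the only one called of 5 tested, next to 3.44% of all tested genes called higher. It encodes ABIN-1, a ubiquitin-binding partner of A20, and had 47, 81 and 63 tags across IL-11- and 125, 117 and 121 across IL-11+ libraries. The IL-11+ libraries were alike and all above the IL-11- libraries (log2 fold change 1.08, SE 0.201, adjusted p = 0.000846 in the edgeR quasi-likelihood test). Without IL-11- replicate 1 it was 0.94, under the fold-change threshold. *Irak3*, an inhibitory kinase of the IRAK family, had a log2 fold change of 0.10 (SE 0.212) and *Tollip* of 0.47 (SE 0.188), and the median of the 5 was 0.11.

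Of the partners of the NOD receptors, 3 were tested and *Slc15a3* was called higher, next to 3.44% of all tested genes. It encodes an endolysosomal peptide transporter that releases muramyl peptides into the cytosol. *Slc15a3* had 19, 32 and 25 tags across IL-11- and 127, 109 and 93 across IL-11+ libraries. No IL-11- library came near the IL-11+ libraries, and the gene rose 4.84-fold (log2 fold change 2.27, SE 0.237, adjusted p = 1.9e-06 in the edgeR quasi-likelihood test). *Ripk2*, the kinase of both NOD receptors, had a log2 fold change of 0.06 (SE 0.422), and *Xiap*, a ubiquitin ligase of the same complex, of −0.14 (SE 0.191). The median of the 3 was 0.06.

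Of the genes that act with STING, 15 were tested, and 2 were lower and 0 higher, next to 6.37% and 3.44% of all tested genes. Of the 15, 1 was higher and 6 were lower at an unadjusted p under 0.05 (12.2% and 14.5% of all tested genes), and DESeq2 and edgeR's exact test also called 0 higher. *Ifi204*, a DNA sensor of the interferon-inducible p200 family, had 111, 131 and 183 tags across IL-11- and 19, 41 and 45 across IL-11+ libraries (log2 fold change −1.85, SE 0.239, adjusted p = 2.07e-05 in the edgeR quasi-likelihood test). *Stim1*, a calcium sensor that holds STING in the endoplasmic reticulum, had 85, 78 and 94 tags against 25, 45 and 30 (log2 fold change −1.20, SE 0.227, adjusted p = 0.000999 in the same test). For both genes all IL-11+ libraries were below all IL-11- libraries. *Surf4*, which carries STING back from the Golgi, was past the p threshold but under the fold-change threshold (log2 fold change 0.60, SE 0.168, adjusted p = 0.0191 in the edgeR quasi-likelihood test), and so were *Enpp1* (−0.88, SE 0.268, adjusted p = 0.0316) and *Samhd1* (−0.60, SE 0.175, adjusted p = 0.025) on the lower side. The median of the 15 was −0.45, with 11 below 0 and 4 above. *Mb21d1*, which encodes cGAS, had 7, 7 and 6 tags against 6, 6 and 11 and was not tested. *Irf7* (−0.86, SE 0.353) was called lower without IL-11+ replicate 2 (log2 fold change −1.35), and *Enpp1*, which breaks down cyclic GMP-AMP, without IL-11+ replicate 3 (−1.17). Other alternatives brought them to −0.57 and −0.67, with adjusted p up to 0.349 and 0.14.

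The target genes of the pathways lay on both sides of 0. Of 7 tested target genes of NF-κB, 6 were higher at an unadjusted p under 0.05 (12.2% of all tested genes). Only *Ptgs2* was called, next to 3.44% of all tested genes called higher. *Ptgs2*, which encodes cyclooxygenase 2, had 487, 629 and 853 tags across IL-11- and 2492, 2154 and 2871 across IL-11+ libraries (log2 fold change 2.10, SE 0.191, adjusted p = 3.94e-07 in the edgeR quasi-likelihood test). *Cxcl1* (0.63, SE 0.185) and *Nfkbia* (0.73, SE 0.189) did not reach a 2-fold change. *Tnfaip3*, which encodes A20, stood at 0.99 (SE 0.176) and was called without IL-11- replicate 1 (1.05), IL-11- replicate 2 (1.03) or IL-11+ replicate 3 (1.12). *Il6* (0.72, SE 0.336, adjusted p = 0.173 in the edgeR quasi-likelihood test) and *Ccl2* (0.79, SE 0.232, adjusted p = 0.0251) were called without IL-11- replicate 3 (1.25 and 1.08). Over their 15 alternatives *Il6* ran from 0.14 to 1.25, with adjusted p from 9.78e-05 (replicate block) to 0.825, and *Ccl2* from 0.49 to 1.08, with adjusted p up to 0.15. The median of the 7 was 0.73.

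Of 3 tested target genes of the interferon side, none was called by edgeR's quasi-likelihood test, DESeq2 or edgeR's exact test, 2 were lower at an unadjusted p under 0.05 (14.5% of all tested genes), and the median was −0.90. Without the filter on low counts 1 gene of this list was called lower. *Cxcl10* had 150, 264 and 151 tags across IL-11- and 64, 131 and 79 across IL-11+ libraries. The groups overlapped in normalized CPM, the highest IL-11+ library (133) above the lowest IL-11- library (124) (log2 fold change −0.90, SE 0.263, adjusted p = 0.025 in the edgeR quasi-likelihood test). Within each replicate number the IL-11+ library was the lower one. *Cxcl10* was called lower without IL-11- replicate 1 (−1.01), IL-11- replicate 3 (−1.09) or IL-11+ replicate 2 (−1.25), but over its 15 alternatives the log2 fold change ran from −1.25 to −0.53 and the adjusted p from 2.56e-05, with the replicate block, to 0.233. *Isg15* and *Ifit1* had log2 fold changes of −0.75 (SE 0.301) and −1.02 (SE 0.508), and both were called lower without IL-11- replicate 1 (−1.06 and −1.44). Other alternatives brought them to −0.55 and −0.24, with adjusted p up to 0.343 and 0.83. The higher *Tmem173* was therefore not accompanied by higher counts of these 3 genes.

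**Figure D3:**
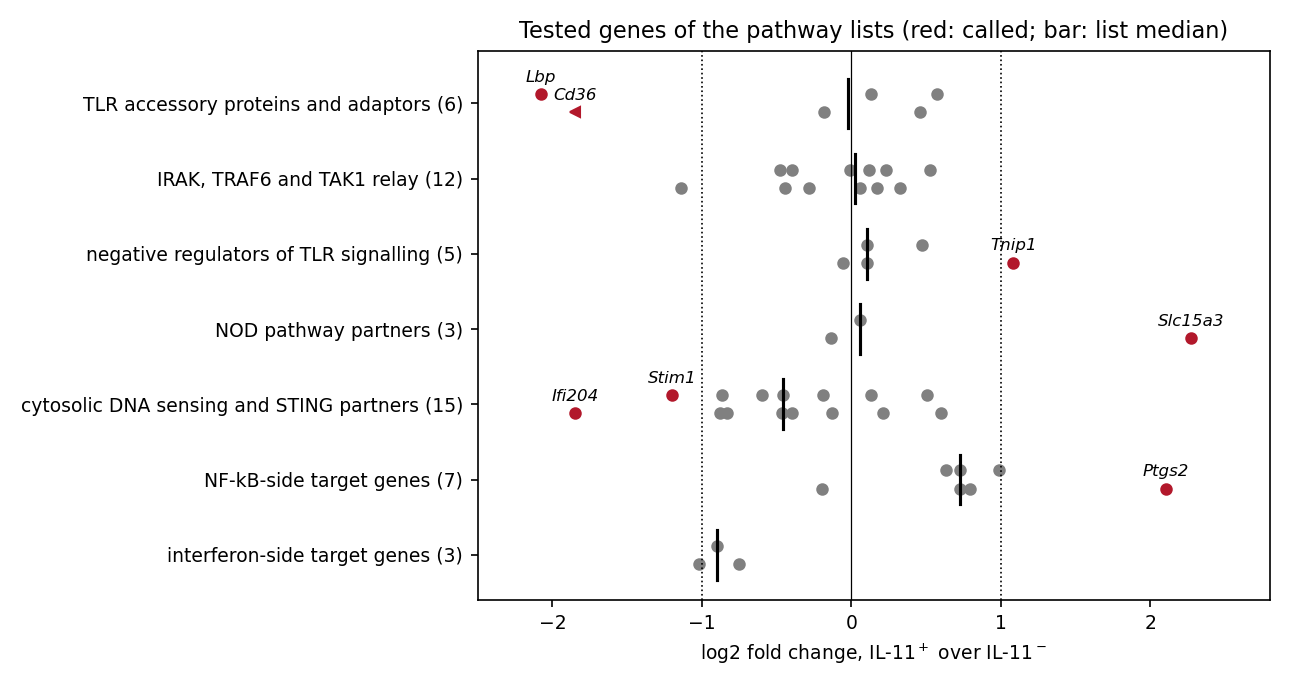
Log2 fold change of IL-11+ over IL-11- fibroblasts (horizontal axis) for the tested genes of 7 pathway lists (rows, number tested in brackets), called genes in red and named, the list median as a bar, dotted lines at a 2-fold change, and the triangle for *Cd36* at its bound against the floor. Medians run from −0.90 for interferon-side targets to 0.73 for NF-κB-side targets.

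To show the regulatory sequence beside the counts, RefSeq promoters (GRCm38.p6, 250 bases before to 50 after the start) were searched on both strands for an NF-κB consensus, which 8.46% of the 32851 promoters in the table hold, the STAT motif TTCNNNGAA (8.3%), the AP-1 motif TGANTCA (7.81%) and the interferon response core (3.44%). Entries matched 6 of the 10 genes (*Tlr1*, *Tlr2*, *Tlr3*, *Nod1*, *Nod2* and *Myd88*) and 4 of the 7 called pathway genes (*Ptgs2*, *Cd36*, *Stim1* and *Tnip1*). *Tlr2* held 3 matches of the NF-κB consensus, 2 of them overlapping, and *Tlr3* held 1. A second entry of *Tlr1* and one of *Nod1* each held TTCNNNGAA, and TGANTCA was in none of the windows that matched. The promoters of *Myd88* and *Tnip1* are printed, as those of genes past the p threshold in which a motif was found, with the matches in capitals. In *Myd88* (chr9:119339969-119340268, minus strand), TTCNNNGAA from base 205 overlaps the interferon response core from base 211. This window lies wholly within the annotated span of *Myd88* (chr9:119335934-119341411), whose 5′ end is upstream of it. In *Tnip1* (chr11:54962891-54963190, minus strand), TTCNNNGAA starts at base 52 and 3 overlapping matches of the NF-κB consensus start at bases 193, 194 and 195. A match describes letters and not a site in use.
Myd88: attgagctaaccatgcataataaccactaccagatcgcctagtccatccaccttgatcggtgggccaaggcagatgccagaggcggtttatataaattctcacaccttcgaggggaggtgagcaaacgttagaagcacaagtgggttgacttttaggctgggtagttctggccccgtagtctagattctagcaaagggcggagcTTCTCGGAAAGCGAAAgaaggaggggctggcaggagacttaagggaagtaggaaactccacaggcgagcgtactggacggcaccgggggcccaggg
Tnip1: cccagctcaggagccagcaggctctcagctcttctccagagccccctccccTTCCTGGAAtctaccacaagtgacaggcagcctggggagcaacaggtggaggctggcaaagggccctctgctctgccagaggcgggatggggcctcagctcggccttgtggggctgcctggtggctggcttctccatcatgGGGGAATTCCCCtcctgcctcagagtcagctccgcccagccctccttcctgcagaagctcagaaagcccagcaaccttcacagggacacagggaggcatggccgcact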

How the data were processed

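The authors isolated polyadenylated RNA from sorted cells, amplified the cDNA by PCR and sequenced it by 5′Tag-seq. Per the submitters' processing notes, Cutadapt 1.18, Bowtie2 2.2.5, R 3.5.1 and the build mm10 were used. The paper's methods state alignment to RefSeq RNA in 1 orientation. The deposited values are raw tag counts per gene symbol, without normalization, 1 library per file. How tags that map to several genes were treated, and whether molecular identifiers were used, is not given in the sources used here, so that floors cover counting error only. The intervals of the fits also include the spread between libraries. The printed methods state that genes with 10 or more tags were removed, which was read here as kept.

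Here the counts were fitted in R 4.3.3 with edgeR 4.0.16 (TMM, estimateDisp, glmQLFit, glmQLFTest) on all 6 libraries, after a filter of at least 10 tags in at least 3 libraries. Benjamini-Hochberg adjustment ran over all 9334 tested genes, and genes with an adjusted p under 0.05 were called where the fold change was over 2, as in the paper's methods. Normalized CPM are CPM of the TMM-scaled library size. Standard errors were derived from the log2 fold change and the F statistic. Where every library of 1 group was at or under 3 tags, the fold change was taken against that floor. The fit was tested on simulated counts. Alternatives were RLE, iterative TMM and library-size scaling, DESeq2 1.42.0, edgeR's exact test, other filters, the p threshold alone, a replicate block, and each library left out. Within groups, Spearman's rho of 2 libraries lay between 0.913 and 0.933, and across groups between 0.83 and 0.869.

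The replicate number of the labels is shared by the groups, and the paper's methods give 3 mice. Deviations from the group means, over 5063 genes with at least 30 tags on average, correlated at 0.23, 0.185 and 0.264 for replicates 1, 2 and 3. Values for unlike numbers are not given here, so these do not settle the pairing. The numbers were taken to pair the libraries only in the fit with the block. The fit without the block is the main one, since the paper's methods name none, and 1 call changed beside a result, that of *Ikbkg* (adjusted p = 0.0482 with the replicate block).

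The 10 genes and the gene lists were chosen with earlier results of these data known. Named genes are the 10 genes, *Il11*, of each list every called gene and the most abundant tested genes up to 3, of each marker list its most abundant and defining genes (1 marker list is not reported here), the 5 genes most like *Cd14*, and genes sharing 5′ sequence. Genes whose call changed when a library was left out or with the block were added after their values were seen. So were *Lum*, *Samhd1*, *S100a9*, *Csf3r*, *Retnlg*, *Acta2*, *Abcc9*, *Kcnj8*, *Mb21d1* and the other Toll-like receptors. Positions, exons and shared 50-nt windows come from GENCODE M21 (GRCm38), and promoters from RefSeq. Protein sequences were not used here.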

Additional observations from a re-analysis of the deposited data

How the results depend on the processing

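Of the 10 genes, 2 were called higher and 0 lower. Scaling by library size alone called 1 higher, *Cd14*, and 1 lower, *Myd88* (adjusted p = 0.000518 in edgeR's quasi-likelihood test, at most 0.00804 over its 15 alternatives). With 10 tags required in all 6 libraries 1 was called higher, since *Cd14* was not tested there, and 256 genes of 7098 were called lower in place of 595. With the adjusted p alone, 638 genes (6.84%) were called higher in place of 321 and 812 (8.7%) lower in place of 595, 1 of the 10 genes was lower (*Myd88*), and 8 of 51 other pathway genes were higher (15.7%) and 7 lower (13.7%), in place of 3 and 4. Leaving out single libraries gave 1 to 2 of the 10 genes called higher and 0 lower, 1 without IL-11- replicate 3, IL-11+ replicate 2 or IL-11+ replicate 3. Other pathway genes called then numbered 3 to 5 higher (5 without IL-11- replicate 3) and 4 to 7 lower (7 without IL-11- replicate 1). The log2 fold change was positive in 2 of 14 alternatives for *Tlr3* and in 2 of 15 for *Nod1*. *Tnfaip3* was also called higher with RLE, DESeq2 and no filter. The replicate block changed no other call among the named results than that of *Ikbkg*, while the adjusted p of *Tlr4*, *Il6*, *Isg15* and *Mrc2* also came under 0.05 with it, below a 2-fold change.

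The comparison rests on 3 libraries per group at 1022851 to 1169817 tags each, so genes near 10 tags have wide intervals and *Tlr1* and *Nod2* could not be compared. The groups are mixtures of sorted cells, and composition was not tested. Protein levels, localization and ligands were not analysed here.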

Other observations

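Further sensors of microbial products were followed in 3 lists. Of the RIG-I-like receptors of viral RNA and their partners 5 genes were tested and none was called by edgeR's quasi-likelihood test, DESeq2 or edgeR's exact test, while 2 were lower and 0 higher at an unadjusted p under 0.05, next to 14.5% and 12.2% of all tested genes. Their median log2 fold change was −0.11. *Zc3hav1* (−0.47, SE 0.206), *Eif2ak2* (−0.08, SE 0.229) and *Ddx58*, which encodes RIG-I (0.21, SE 0.258), were the most abundant.

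Of 13 inflammasome genes 3 were tested and again none was called by these 3 tests, with 1 lower and 0 higher at an unadjusted p under 0.05 (14.5% and 12.2% of all tested genes). *Casp4*, which encodes caspase-11, the cytosolic receptor of lipopolysaccharide, had 150, 175 and 231 tags across IL-11- and 76, 103 and 133 across IL-11+ libraries. All IL-11+ libraries were below all IL-11- libraries in normalized CPM, and the log2 fold change stood at −0.67 (SE 0.189, adjusted p = 0.0199 in the edgeR quasi-likelihood test), which is under the fold-change threshold. *Gsdmd*, which encodes the pore-forming gasdermin D, had a log2 fold change of 0.09 (SE 0.25) and *Pycard* of −0.25 (SE 0.514). *Nlrp3* had 2 tags in IL-11+ replicate 2 and 0 in the other 5 libraries.

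Of 11 C-type lectins, scavenger and peptidoglycan receptors in the files 4 were tested and none was called by the same 3 tests, with 1 higher and 0 lower at an unadjusted p under 0.05 (12.2% and 14.5% of all tested genes). The 3 most abundant were *Scara5* (log2 fold change −0.03, SE 0.208), *Colec12* (−0.19, SE 0.157) and *Mrc2*, the collagen receptor of stromal cells (0.59, SE 0.205).

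The 5 tested genes whose log2 normalized CPM (pseudocount 1) followed *Cd14* most closely over the 6 libraries were *Trappc5* (Pearson's r 0.987), *Rbm28* (0.986), *Rnf180* (0.983), *Lox* (0.983) and *Ahr* (0.982), given as a description over libraries that share mice and fall into 2 groups. Since they were picked for following a gene that differed between the groups, no test of the groups is given for them. *Rnf180* had 13, 2 and 4 tags across IL-11- and 41, 45 and 17 across IL-11+ libraries. The log2 fold changes were 0.56 for *Trappc5*, 0.35 for *Rbm28*, 2.58 for *Rnf180*, 1.05 for *Lox*, which encodes the collagen cross-linking lysyl oxidase, and 1.36 for *Ahr*, a receptor of microbial and dietary ligands.

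Further marker lists are given as summed tags. Endothelial genes summed to 48, 37 and 55 tags across IL-11- and 17, 11 and 9 across IL-11+ libraries, most of them *Tek*, which was lower in IL-11+ fibroblasts (log2 fold change −1.59, SE 0.392). Globin and other erythroid genes, led by *Hbb-bs*, summed to 95, 0 and 371 against 18, 2 and 20 tags. Epithelial genes summed to 4, 1 and 16 against 2, 3 and 7 tags, led over the 6 libraries by *Krt8*, and lymphocyte genes to 1, 6 and 9 against 5, 3 and 4 tags, with *Nkg7* leading over the 6 libraries but at 0 in IL-11+ ones. Mesothelial genes, led by *Wt1*, summed to 14, 5 and 19 against 0, 0 and 2 tags.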
